A study of Rattus norvegicus with 18 samples.

Results

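The rat oculomotor nucleus was compared between 30 months, old age in this species, and 6 months, young adulthood. The comparison rests on 6 of the 18 arrays of the series, chosen by their titles: 3 of the nucleus at 30 months and 3 at 6 months. The other 12 arrays hold the nucleus at 18 months (3) and the spinal cord at 6, 18 and 30 months (3 each). All animals carry the strain label F344BN, and no treatment is named for any group. The RNA on each array was pooled from 4 animals, so an array is 1 sample. The p-values measure the spread between pools, which was estimated from all 18 arrays. Each array is an Affymetrix RA230 chip, on which a probe set, a group of short probes for 1 transcript, gives a signal on a linear scale.

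The oculomotor nucleus is a group of cholinergic motor neurons in the midbrain that drives most of the muscles that turn the eye. Its neurons lie among oligodendrocytes, astrocytes and microglia, the resident macrophages of the brain. Microglia and other macrophages present protein fragments to helper T cells on major histocompatibility complex (MHC) class II molecules, tag debris with complement and bind antibodies through Fc receptors. The leptomeninges and vessel sheaths around the tissue contain fibroblasts, which secrete collagens.

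The dissected tissue held markers of cholinergic motor neurons at low to moderate signals. Prph, the intermediate filament peripherin, had signals of 412 to 503 at 6 months and 471 to 501 at 30 months. Slc5a7, the choline transporter, had 489 to 610.2 and 447 to 531. Isl1, a motor neuron transcription factor, lay under the noise floor (a signal of 66.4) on 5 of these 6 arrays. The pieces also held dopamine and serotonin neurons of the surrounding midbrain: Slc6a3, the dopamine transporter, had 1219 to 1735 over the 6 arrays and Slc6a4, the serotonin transporter, 1268 to 1570.2. The summed signal of 26 oculomotor and cholinergic genes, 5 of them under the floor throughout, ran from 4915 to 5568 at 6 months and from 4838 to 5396 at 30 months. The ages overlapped, and 0 of the 12 genes tested passed.

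Of 9482 probe sets tested, 20 differed between the ages (limma, Benjamini-Hochberg adjusted p under 0.05), which is 0.211%, and 770 (8.12%) had an unadjusted p under 0.05. At 30 months 17 were higher (0.179%) and 3 were lower (0.0316%). In all 20 the arrays of one age did not overlap those of the other, against 13.9% of all probe sets. The 20 were chosen by their difference between these same arrays, so that count supports nothing. The 20 name 15 genes that rose and 3 that fell, with 1 further probe set annotated to several genes and 1 to none. Among the rises were 4 genes of MHC class II, 1 of complement, 3 of Fc receptor signalling and 2 microglial markers. The 3 falls were Slc13a4, Igf2 and Col1a1, known from meningeal fibroblasts. Over all probe sets the median log2 change was 0.000918, with quartiles of -0.11 and 0.12, and 50.2% were positive. In whole tissue, more cells of a type and more RNA per cell cannot be told apart.

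**Figure D1:**
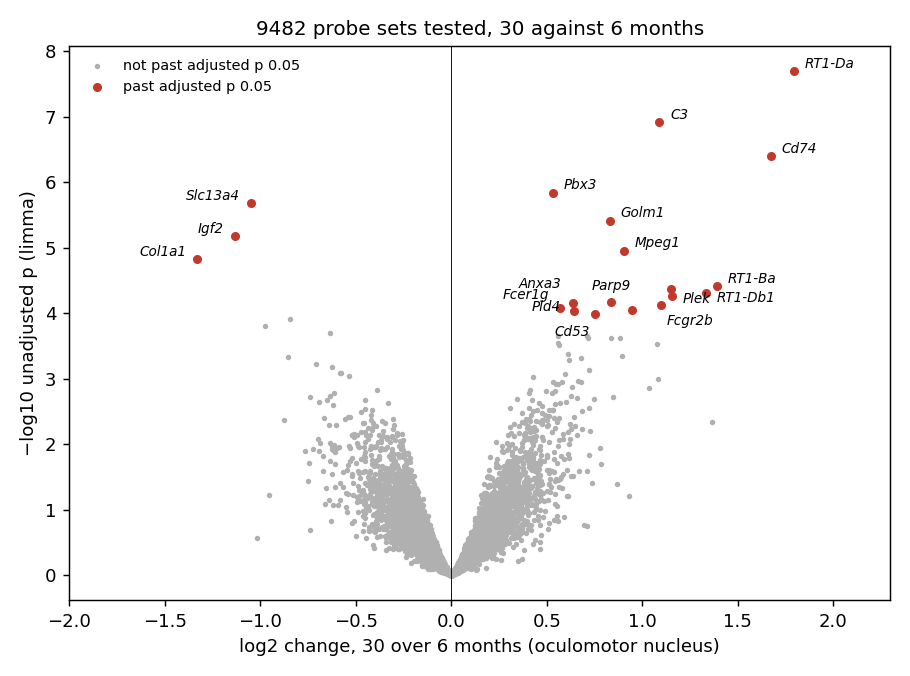
Each point is 1 of the 9482 probe sets tested, with its log2 change from 6 to 30 months in the oculomotor nucleus on the x axis and the −log10 of its unadjusted p on the y axis. The 20 probe sets past an adjusted p of 0.05 are red, 17 on the right and 3 on the left, and the 18 that name 1 gene are labelled.

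The 4 largest log2 changes among the rises past the test were those of MHC class II genes, RT1-Da, Cd74, RT1-Ba and RT1-Db1. The stretch before the start site is shown for the 4 class II chains whose log2 change exceeded 1, of which RT1-Bb did not pass the test. Rat RT1-D and RT1-B are the counterparts of human HLA-DR and HLA-DQ, and each pairs an alpha with a beta chain. Class II promoters share short elements just upstream of the start, among them the Y box, an inverted CCAAT sequence bound by the factor NF-Y. The 150 bases before each start site follow, 5′ to 3′ on the gene's strand, from RefSeq on build GRCr8, with the longer Y box form TGATTGG in capitals. RT1-Da lies at chr20:4515265-4515414 (plus strand), RT1-Db1 at chr20:4560163-4560312 (minus strand), RT1-Ba at chr20:4576907-4577056 (plus strand) and RT1-Bb at chr20:4604119-4604268 (minus strand).
RT1-Da: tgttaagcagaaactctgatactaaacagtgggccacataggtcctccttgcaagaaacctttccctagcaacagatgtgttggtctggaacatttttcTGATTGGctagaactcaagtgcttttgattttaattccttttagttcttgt
RT1-Db1: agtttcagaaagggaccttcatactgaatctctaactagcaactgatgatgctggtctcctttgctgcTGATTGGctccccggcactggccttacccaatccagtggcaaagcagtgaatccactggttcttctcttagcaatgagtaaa
RT1-Ba: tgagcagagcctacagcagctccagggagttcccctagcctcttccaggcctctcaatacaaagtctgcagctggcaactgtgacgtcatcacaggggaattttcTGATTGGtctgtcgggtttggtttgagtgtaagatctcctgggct
RT1-Bb: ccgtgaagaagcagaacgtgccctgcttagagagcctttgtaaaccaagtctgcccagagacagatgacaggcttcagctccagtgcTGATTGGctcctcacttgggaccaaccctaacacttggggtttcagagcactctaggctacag

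The capitals begin 51, 82, 45 and 63 bases before the start site in RT1-Da, RT1-Db1, RT1-Ba and RT1-Bb, each on the gene's own strand. Both strands of the window from 250 bases before to 50 after the start were searched for 6 short motifs. Windows were at hand for 12 of the 18 genes past the test; Pbx3, Golm1, Col1a1, Plek, Fcgr2b and Fcer1g were not analysed here. TGATTGG stood in 7.06% of all 33469 RefSeq windows of that length and in 4 of the 12: RT1-Da, RT1-Db1, RT1-Ba and, on the other strand, Slc13a4, whose level fell. The core ATTGG, which every TGATTGG contains, stood in 37.5% of all windows and in 7 of the 12, adding Cd74, Mpeg1 and Cd53. TTCNNNGAA, a STAT motif, was in 8.87% of all and 0 of the 12. GAAANNGAA, a shortened interferon response motif, was in 9.71% and 1 (Slc13a4), and GGGNNTTCC, an NF-kB form, in 5.92% and 3 (Cd74, Igf2, RT1-Ba). GAGGAAG, a PU.1-like motif, was in 12.4% and 2 (Anxa3, Cd53). These are matches of letters, not sites shown to be bound.

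RT1-Da, the DR-like alpha chain, had the largest log2 change of all probe sets tested. Its 6-month signals were 291, 315 and 283, its 18-month signals 458, 411 and 418, and its 30-month signals 1424, 823 and 929. The 3 ages were fully separated, and 30-month replicate 1 stood above replicates 2 and 3. The rise was 3.47-fold (log2 1.80, 95% interval 1.39 to 2.20, adjusted p = 0.00019).

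Cd74, the invariant chain that guides class II molecules to the endosome, had 6-month signals of 541, 475 and 343.5, 18-month signals of 731, 596 and 669, and 30-month signals of 1909, 1183 and 1270.5. The ages were again separated, with replicate 1 the highest of the old arrays. The rise was 3.19-fold (log2 1.67, interval 1.21 to 2.14, adjusted p = 0.00127).

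RT1-Ba, the DQ-like alpha chain, had 227, 222 and 392.5 at 6 months and 783, 802 and 570.1 at 30 months. Replicate 3 was the highest young array and the lowest old one, and the ages still did not overlap. The rise was 2.63-fold (log2 1.39, interval 0.85 to 1.94, adjusted p = 0.0367).

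RT1-Db1, the DR-like beta chain, was dim at 6 months with 95.4, 118 and 118, and had 333, 232 and 273 at 30 months. The rise was 2.52-fold (log2 1.33, interval 0.80 to 1.87, adjusted p = 0.0393), read by a probe set of the s_at kind, whose probes can be shared by related transcripts. RT1-Bb, the DQ-like beta chain, had 178, 183 and 160 at 6 months and 482, 300.3 and 342 at 30 months. Its ages did not overlap either, but the log2 difference of 1.08 (interval 0.50 to 1.67) did not pass (adjusted p = 0.214). Replicate 1 held the highest 30-month signal for RT1-Da, Cd74, RT1-Db1 and RT1-Bb alike.

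Of 19 genes of class II and its loading, 13 were on the array and 11 were tested. 4 rose, 10 were positive and 8 were higher without overlap, against 6.68% of all probe sets. Their median log2 change was 0.67. The genes that prepare and load peptides had smaller values than the 4 chains and Cd74, and none of them passed. Ctss, the protease cathepsin S that trims the invariant chain, had a mean of 3905 at 6 months and 6205 at 30 months (log2 0.67, adjusted p = 0.221). Ifi30, a lysosomal thiol reductase, had a log2 difference of 0.46, and RT1-DMb and RT1-DMa, the chains of a peptide exchange factor, had 0.24 and 0.07. Rfx5, a factor of the class II promoter, had -0.19, and Ciita, the class II coactivator, was below the filter on low signals. Differences in size between members were not tested.

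**Figure D2:**
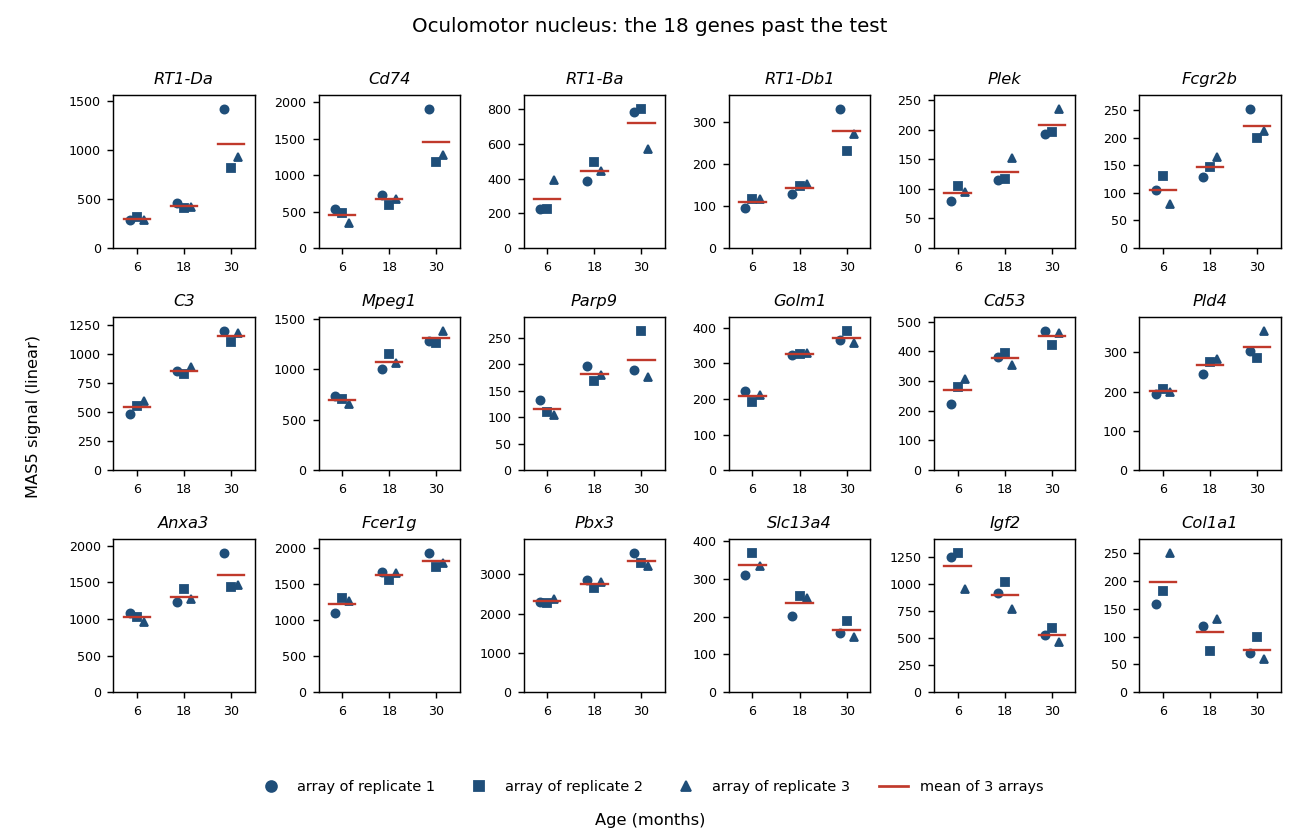
Signals (linear, y axes from 0) of the 18 named genes past the test in the oculomotor nucleus at 6, 18 and 30 months. Points are arrays, with the marker shape giving the replicate number, and red lines are means of 3 arrays; in each panel the 30-month points lie on one side of the 6-month points.

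MHC class I, which nearly all cells use to show peptides to cytotoxic T cells, had no gene past the test. Of 31 genes of class I and its loading 15 were tested, 11 were positive and the median was 0.12, or 0.20 without 30-month replicate 2 and 0.06 without replicate 3. B2m, the class I light chain, had a mean of 5170 at 6 months and 6080 at 30 months (log2 0.22, adjusted p = 0.708). Psmb8, a subunit of the immunoproteasome, had 0.43 (adjusted p = 0.523).

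In a list of 58 interferon response genes 17 were tested and 1 rose, while 16 were positive with a median of 0.15 (0.09 without 30-month replicate 2). The gene that rose was Parp9, an interferon-induced member of the poly(ADP-ribose) polymerase family. It had 132, 110.3 and 104 at 6 months and 188, 263 and 175 at 30 months, a rise of 1.79-fold (adjusted p = 0.0438). Replicate 2 lay above the other old arrays, and the ages did not overlap. The signal transducer Stat2 had 0.25, the membrane protein Bst2 0.33 and the receptor chain Ifnar1 -0.57, none past the test.

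C3, the protein on which the complement routes meet, had the second smallest p of the comparison. The young arrays read 486, 555 and 596, the 18-month arrays 857, 826 and 883, and the old arrays 1199, 1099 and 1176. The ages formed 3 separate steps, and 30-month replicate 1 did not stand apart. The rise was 2.13-fold (log2 1.09, interval 0.81 to 1.37, adjusted p = 0.000574).

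C1qa, a chain of the recognition protein C1q, had 912, 869 and 956 at 6 months and 1599.9, 1276 and 1647 at 30 months. Its ages were separated, but the log2 difference of 0.72 did not pass (adjusted p = 0.0813). C1qb had 0.38, C1qc 0.31 and the C1 inhibitor Serping1 0.47. Of 38 complement genes 13 were tested, 1 rose and 10 were positive, with a median of 0.27 that was 0.11 without 30-month replicate 2.

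3 genes of antibody sensing and its signalling rose. Fcgr2b, the inhibitory receptor for immunoglobulin G, had 105.5, 130.2 and 79.4 at 6 months and 253, 199 and 212 at 30 months (2.14-fold, adjusted p = 0.0448). Fcer1g, the signalling chain that activating Fc receptors share, had 1106, 1317 and 1276 at 6 months and 1937, 1737 and 1804 at 30 months (1.48-fold, adjusted p = 0.0466). Plek, pleckstrin, a kinase substrate of platelets and leukocytes, had 80.3, 105 and 94.6 at 6 months and 192, 196 and 236 at 30 months (2.23-fold, adjusted p = 0.0394). In all 3 the ages were separated, in Fcgr2b and Plek from young levels near the floor. These calls were lost in most alternatives: Fcgr2b passed in 4 of 17, Plek in 5 of 17 and Fcer1g in 5 of 18, with adjusted p up to 0.265, 0.211 and 0.264. The activating receptor Fcgr3a had a log2 difference of 0.37, the adaptor Tyrobp 0.44 and the kinase Syk 0.32, none past the test. Of 29 listed genes 13 were tested and 11 were positive, with a median of 0.32.

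Mpeg1, a pore-forming protein of macrophages, had 739, 704 and 651 at 6 months and 1277, 1265 and 1380.5 at 30 months. It rose 1.87-fold (log2 0.91, adjusted p = 0.0134), while a second, dimmer Mpeg1 probe set had a log2 difference of 0.40 (adjusted p = 0.736). Cd53, a tetraspanin of leukocytes, rose 1.68-fold, from 222, 280 and 307 to 469, 420.3 and 463 (adjusted p = 0.0496). Pld4, an endolysosomal exonuclease found in microglia, rose 1.56-fold, from 195, 207 and 199.8 to 303, 286 and 355 (adjusted p = 0.047). The ages were separated in each, and Cd53 lay closest to the threshold of the 20.

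Of 28 genes of microglial identity 19 were tested. 2 rose, Mpeg1 and Cd53, 17 were positive and the median was 0.36. Of the 19, 9 were higher without overlap, against 6.68% of all probe sets. The list's median deviation from the 6-month mean was 0.49, 0.31 and 0.28 on 30-month replicates 1, 2 and 3. The purine receptor P2ry12 had 0.61 (adjusted p = 0.126), the growth factor receptor Csf1r 0.42 and Tmem119 0.44. The fractalkine receptor Cx3cr1 had 0.33 and Aif1, the antigen IBA1, 0.45, and none of these genes passed. Their second probe sets had a log2 difference of 0.61 for P2ry12 (adjusted p = 0.138) and 0.05 for Aif1 (adjusted p = 0.976), so those of Aif1 disagree. The summed signal of the 22 list genes on the array, 1 of them under the floor throughout, ran from 7886 to 8168 at 6 months and from 9939 to 10837 at 30 months, so the ages did not overlap. The part of this shift in the class II, complement and Fc receptor changes was not tested.

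Other leukocytes gave few measurable genes. Of 34 lymphocyte genes 17 were on the array, 8 of them under the floor on all 6 arrays, and 0 of the 3 tested passed. Cd4, a coreceptor of helper T cells that rat macrophages and microglia can also express, had 195.6, 171 and 169 at 6 months and 261, 333 and 248 at 30 months, without overlap (log2 0.65, adjusted p = 0.369). Cd3d, Cd3e and Cd79b, defining genes of T and B cells, were under the floor on all 6 arrays. Cd3g, a T-cell receptor chain too dim to be tested, had 73.4, 75.7 and 79.9 at 6 months and 96.9, 118 and 118 at 30 months. The summed lymphocyte signal was 1349 to 1453 at 6 months and 1540.0 to 1857 at 30 months, so these did not overlap either, and its part in the class II change was not tested. Of 14 genes of perivascular and border macrophages 6 were tested, 0 passed and 3 were positive (median -0.04), and their summed signals, 3 of 9 genes under the floor throughout, overlapped at 1457 to 1576 and 1377 to 1679.9.

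Genes of activated phagocytes had 0 of 21 past the test and 13 positive, with a median of 0.18 (0.28 without 30-month replicate 2). S100a4, a calcium-binding protein, had 0.90 (adjusted p = 0.13) and Gpnmb, a glycoprotein of macrophages, 1.03 (adjusted p = 0.252). The apolipoprotein Apoe had 0.02 and osteopontin, Spp1, -0.04. Of the 21, S100a4, Gpnmb, Capg, Tyrobp, Grn, Ctsz and Lgals3bp were higher without overlap and Cd9 lower. Over all probe sets these shares were 6.68% and 7.21%. In the lysosome list 0 of 41 passed and 31 were positive (median 0.08), with Npc2, a lysosomal cholesterol carrier, at 0.56 (adjusted p = 0.0813).

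3 genes without a known main role in immunity also rose. Pbx3, a homeodomain transcription factor, had young signals of 2289, 2269.8 and 2382, 18-month signals of 2846, 2648 and 2797, and old signals of 3545, 3291 and 3201. It is not particular to the midbrain here, as its cord means of 3873 to 4550 were above those of the nucleus, 2314 to 3346. The ages were separated, and the rise of 1.45-fold (log2 0.53, interval 0.37 to 0.69, adjusted p = 0.00345) was the smallest of the 18 genes. Pbx3 was placed in the list of neighbouring midbrain neurons, whose other 16 tested genes did not pass and whose median was -0.02. Golm1, a Golgi membrane protein, rose 1.78-fold, from 223, 193 and 212 to 366, 391 and 357 (adjusted p = 0.0061), and its second probe set had a log2 difference of 0.53 (adjusted p = 0.333). Anxa3, a calcium-dependent phospholipid-binding protein, rose 1.55-fold, from 1082, 1027 and 959.6 to 1901, 1439 and 1461 (adjusted p = 0.0438). Both were separated by age, Anxa3 with its highest signal on 30-month replicate 1.

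Below the threshold, the next higher genes by p were Npc2, the homeobox factor Zfhx3 (log2 0.71), the incretin receptor Gipr (0.89), Grxcr1 (0.83), C1qa, Efcab14 (0.56), Tmem176a (0.56), P2ry12 and S100a4, with adjusted p from 0.0813 to 0.13.

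The 3 genes that fell are known from meningeal fibroblasts. Slc13a4, a sulfate transporter, had young signals of 310.1, 368 and 334, 18-month signals of 203, 254 and 250, and old signals of 156, 188 and 147. It fell 2.07-fold, with no overlap between successive ages (log2 -1.05, interval -1.37 to -0.72, adjusted p = 0.00398).

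Igf2, insulin-like growth factor 2, had 1251, 1290.3 and 959 at 6 months and 534, 595 and 462 at 30 months. It fell 2.19-fold (log2 -1.13, interval -1.52 to -0.75, adjusted p = 0.00904), and its 18-month signals of 921, 1022 and 768 overlapped those at 6 months. Col1a1, the alpha-1 chain of type I collagen, had 159, 183 and 250.4 at 6 months and 69.8, 99.5 and 59.3 at 30 months. The ages were separated, and since the last value was under the floor the fall of 2.51-fold (log2 -1.33, adjusted p = 0.0159) is a lower bound. A second Col1a1 probe set had a log2 difference of -0.29 (adjusted p = 0.771), so the probe sets disagree in size.

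**Figure D3:**
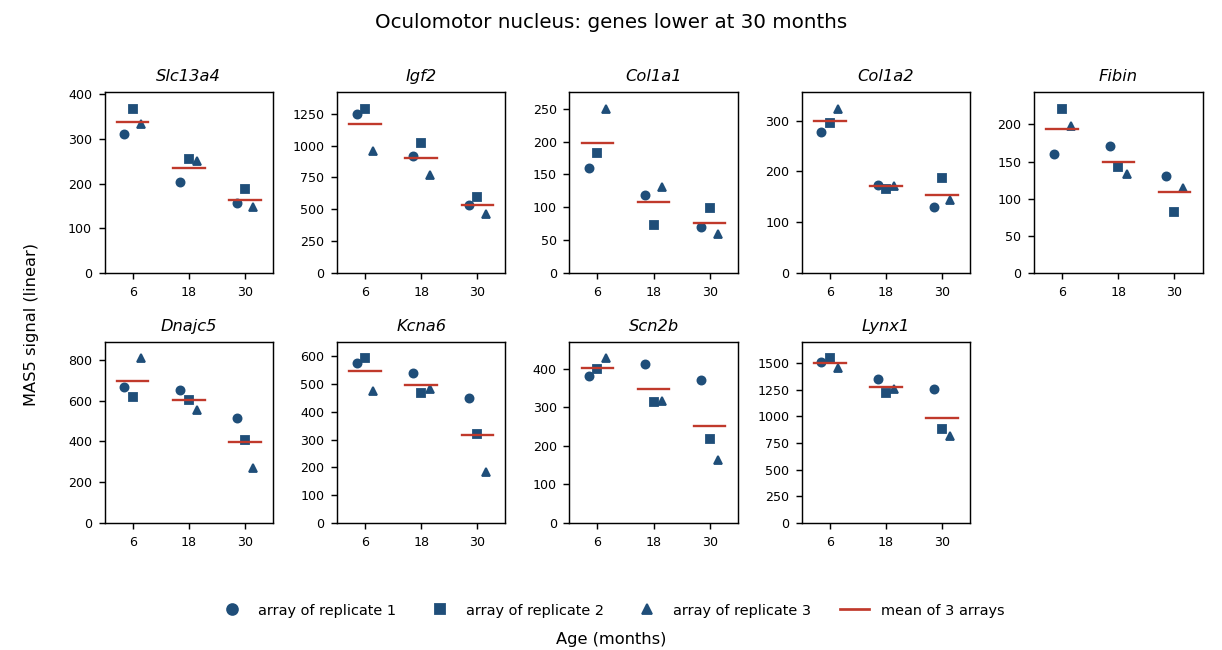
Signals (linear, y axes from 0) of 9 genes lower at 30 months in the oculomotor nucleus, with age in months on the x axis. Points are arrays, shaped by replicate number, and red lines are means of 3 arrays; Slc13a4, Igf2 and Col1a1 passed the test and the other 6 did not, and in the lower row 30-month replicate 1 lies above replicates 2 and 3.

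Other matrix genes of the same list had lower values without passing. Col1a2, the second type I chain, had 277, 295 and 324 at 6 months and 129, 187.5 and 143 at 30 months (log2 -0.98, adjusted p = 0.0688), and -0.62 on its other probe set (adjusted p = 0.316). The ages were separated there, as they were for Col3a1 at -0.62 and the proteoglycans fibromodulin (Fmod) at -0.69 and decorin (Dcn) at -0.44. Basement membrane genes had values on both sides of 0: Col4a1 had -0.25, Col4a2 0.13, Lamc1 0.10 and Nid1 -0.03. Of 67 listed genes 46 were tested, 3 fell, 13 were positive and 12 were lower without overlap, against 7.21% of all probe sets, with a median of -0.13. Fibin, a secreted protein outside the list, had 161, 221 and 198 at 6 months and 131, 81.9 and 114 at 30 months (log2 -0.84, adjusted p = 0.0544).

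Material from the edges of the dissection differed between arrays. Ttr, made in quantity by the choroid plexus, had 3719.9, 164 and 124.5 at 6 months and 516.5, 129.5 and 137 at 30 months, so 6-month replicate 1 held far more of it. The summed signal of 21 choroid plexus and ependyma genes was 7917, 3638 and 3621 at 6 months and 4015, 3565 and 4184 at 30 months, and Kl, a choroid plexus gene, was under the floor on all 6 arrays. With log2 Ttr as a covariate Slc13a4 had -1.10 (adjusted p = 0.00457), Igf2 -1.12 (0.0278) and Col1a1 -1.36 (0.0295). The summed signal of 62 matrix and meningeal genes, 2 of them under the floor throughout, ran from 29662 to 30504 at 6 months and from 25936 to 27736 at 30 months. Whether less meningeal tissue was dissected at 30 months was not tested. Control probe sets compare the 3′ with the 5′ end of a transcript and so reflect RNA integrity. Those of hexokinase gave ratios of 1.57 to 1.64 on the young arrays and 1.76 to 1.91 on the old ones. The ages overlapped for GAPDH, at 0.99 to 1.02 and 1.00 to 1.09, and for beta-actin, at 1.25 to 1.36 and 1.31 to 1.54. The part of RNA integrity in these results was not tested.

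The series' design asked for consistent difference calls in each pairing of an old with a young array and an average change above 1.70-fold. Those calls were made from the probes within a probe set and cannot be remade from the deposited signals. Here the same direction of the signals in every pairing stands in for them. In that form 19 probe sets were higher (0.2%) and 8 lower (0.0844%), 15 of which also passed the test. Scn2b stood just inside at 1.70-fold, and Cd53 at 1.68 and Plac8 at 1.68 just outside. Beside genes past the test, the higher ones were RT1-Bb, Gpnmb, S100a4, Gipr, Grxcr1 and 2 probe sets without a gene name. The lower ones added Col1a2, Fibin, Kcna6, Dnajc5 and Scn2b to the 3 genes that fell.

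Kcna6, Dnajc5 and Scn2b are genes of neurons. Kcna6, a potassium channel, had 576, 592 and 476 at 6 months and 449, 319.9 and 184 at 30 months (log2 -0.87, adjusted p = 0.369). Scn2b, a sodium channel beta subunit, had 382, 399.5 and 427 and then 372, 217 and 164 (log2 -0.77, adjusted p = 0.452). In both the old replicate 1 lay just below the young arrays and replicates 2 and 3 far below. Dnajc5, a chaperone of synaptic vesicles, had 665, 620.0 and 807 and then 516, 406 and 268 (log2 -0.86, adjusted p = 0.13), with -0.15 on its brighter probe set. Lynx1, a membrane-anchored modulator of nicotinic receptors, had 1510.1, 1542 and 1453 and then 1258, 884 and 813 (log2 -0.63, adjusted p = 0.0813). Here too replicate 1 was the old array nearest to the young ones.

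Other neuronal genes had higher values at 30 months. Ank3, ankyrin G, which anchors channels at the start of the axon, had 965.7, 756 and 756 at 6 months and 1102, 1309 and 1285 at 30 months (log2 0.58, adjusted p = 0.221). Map2, a microtubule protein of dendrites, had 3343, 3065 and 3303 and then 3558, 4295 and 4804 (log2 0.37, adjusted p = 0.345). The ages did not overlap in either gene. Both belong to the list of neurofilaments and axonal cytoskeleton, of which 28 were tested, 0 passed, 13 were positive and the median was -0.01. Of the 28, 2 were higher and 2 lower without overlap, near the shares of all probe sets, 6.68% and 7.21%.

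The lists of synaptic and energy genes held none past the test. Of 30 tested genes of synaptic vesicles and release 0 passed and 8 were positive, with a median of -0.12 (-0.07 without 30-month replicate 2). Of the 30, 6 were lower without overlap, against 7.21% of all probe sets. The vesicle protein Vamp1 had -0.45 and the calcium sensor Syt2 -0.49. Of 67 genes of oxidative phosphorylation 0 passed, 7 were positive and the median was -0.12. Against the 6-month mean that list stood at -0.02, -0.30 and 0.02 on 30-month replicates 1, 2 and 3, and its median was -0.02 without replicate 2, so it rests on 1 array. Ribosomal protein genes differed between the same arrays, at 0.08, -0.23 and 0.30. Replicates 2 and 3 also had scores of 14.2 and -16.6 on the first component of variation within groups, where the other oculomotor arrays lay between -1.70 and 2.34.

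Gfap, the astrocyte filament, had a log2 difference of 0.39 (adjusted p = 0.399), while the median of 28 astrocyte markers was -0.05 and that of 26 myelin genes 0.05, with 0 past the test in both. In total 8 of 37 lists held a gene past the test, among them that of neurotrophic factors through Igf2 and that of neighbouring midbrain neurons through Pbx3 alone. The other 29 had medians between -0.12 and 0.32. The highest of these was that of 4 blood genes, whose haemoglobin chain Hba-a3 had 141, 270.2 and 618 at 6 months and 873, 608 and 758 at 30 months, with overlapping ages.

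**Figure D4:**
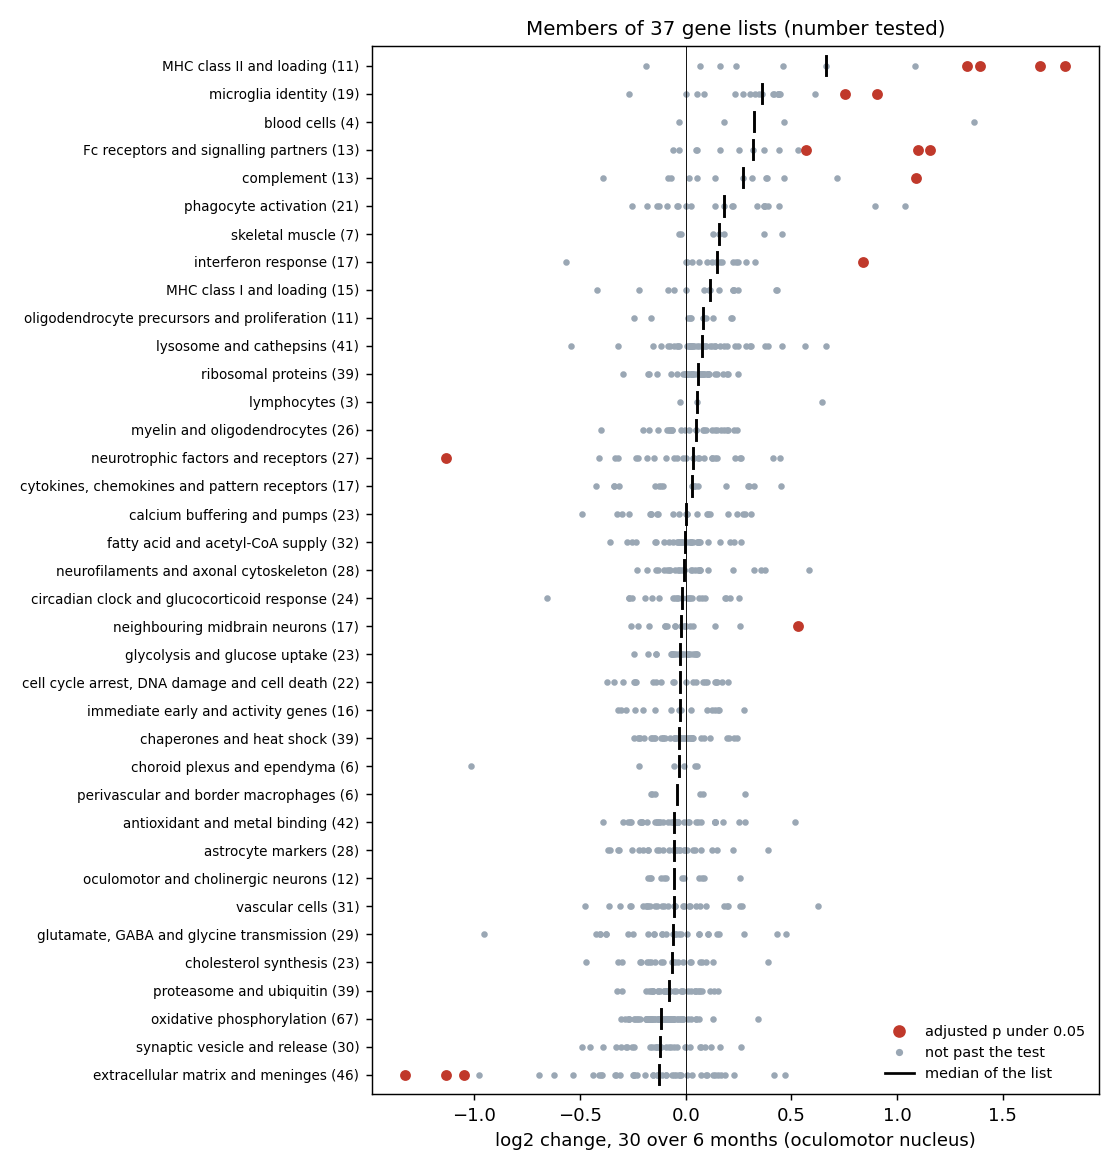
Log2 change from 6 to 30 months in the oculomotor nucleus for the tested members of 37 gene lists, with the list median as a black bar. Points are genes, red where the adjusted p was under 0.05; the class II list has the highest median, 0.67, with 4 red points, and the list of extracellular matrix and meninges the lowest, -0.13, with 3.

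At 18 months the mean signal lay between those of 6 and 30 months for all 20 probe sets, and in 14 of them the 3 ages did not overlap. They were chosen by their gap between 6 and 30 months, which favours a mean in between. No share over all probe sets is given, so these counts alone show no steady course over age. In 12 of the 20 the 18-month mean was closer to the 30-month level than to the 6-month level on the log2 scale. Golm1 stood 0.64 above its 6-month level at 18 months and 0.83 at 30 months, and Parp9 0.66 and 0.84. RT1-Da stood 0.53 and 1.80 above it, RT1-Db1 0.39 and 1.33, and RT1-Ba 0.70 and 1.39. Differences between the steps were not tested. Both values of a pair share the 6-month arrays.

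In the spinal cord 19 of the 20 probe sets had the same direction, Slc13a4 being the exception. There 7 of the 20 also passed the test. That is 35% of the calls in the nucleus and 33.3% of the 21 calls in the cord (0.221% of all probe sets). For direction no share over all probe sets is given, so the count of 19 alone shows no particular agreement between the tissues. RT1-Da had a log2 change of 1.80 in the nucleus and 1.15 in the cord, RT1-Db1 1.33 and 1.56, and C3 1.09 and 0.77. Slc13a4 had -1.05 and 0.03, a difference of -1.08 (95% interval -1.54 to -0.62, adjusted p = 0.504). Igf2 had -1.13 and -0.22, a difference of -0.91 (interval -1.45 to -0.36, adjusted p = 0.712). The difference between the tissues passed limma's test for 0 of the 9482 probe sets (0%), and 519 (5.47%) had an unadjusted p under 0.05. Among the 20 its adjusted p was 0.504 to 0.994, and the unadjusted interval left out 0 for 8. The change was larger in size in the nucleus for 18 of them, but they were chosen by their change there, so that count supports nothing.

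**Figure D5:**
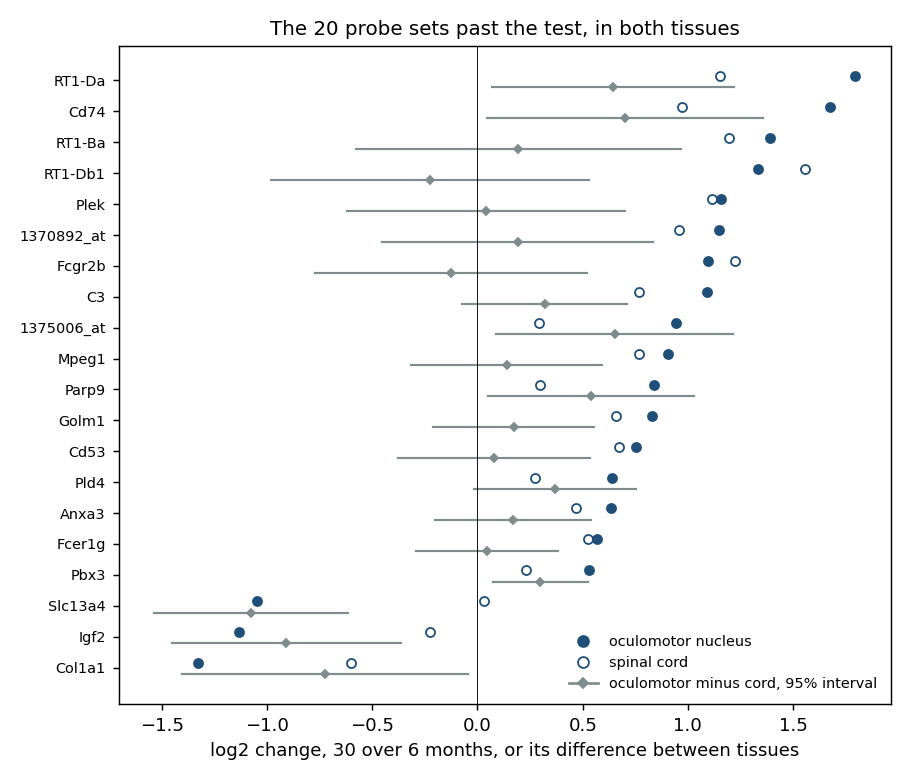
Log2 changes from 6 to 30 months of the 20 probe sets past the test in the oculomotor nucleus (filled circles) and of the same probe sets in the spinal cord (open circles). Grey diamonds and bars give the nucleus minus the cord with its unadjusted 95% interval; 8 bars leave out 0, and none of these differences passed after adjustment.

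The number of probe sets past the test depended on single arrays. With a single 6-month array left out it was 10 (replicate 1), 4 (replicate 2) or 8 (replicate 3), and with a single 30-month array left out 69 (replicate 1), 8 (replicate 2) or 7 (replicate 3). RT1-Da, C3 and Cd74 passed in all 18 alternatives tried, Pbx3 and Slc13a4 in 17, Golm1 in 16, Igf2 in 14, Mpeg1 in 12 and RT1-Ba in 11, and Col1a1 in 11 of 17. The probe set of several genes passed in 9 of 18. The other 9 calls passed in at most 6 of the 17 or 18 alternatives that tested them: RT1-Db1, Parp9 and the probe set without a gene in 6, Plek, Fcer1g and Anxa3 in 5, Fcgr2b and Pld4 in 4, and Cd53 in 2.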

How the data were processed

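Pooled RNA of oculomotor nucleus and cord was hybridised to 18 Affymetrix RA230 arrays, grouped by their titles. The authors deposited 1 linear intensity per probe set and array, made with MAS5 per the submitters' processing notes. The deposited intensities have the same trimmed mean, 500.1, on every array (2% trimmed at each end), so scaling them to a common value left them nearly unchanged. The labels give 3 arrays per group where the design text speaks of 4 replicates, and the labels were followed.

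Signals were raised to a floor of 66.4 (the pooled 20th percentile) and put on the log2 scale. Of 15923 probe sets, 57 controls were left out. The 9482 whose mean log2 over all 18 arrays, cord included, exceeded the pooled 40th percentile, 7.46, were tested. Cord signals thus affected which were tested. A second Slc6a3 probe set had 373 to 430 at 6 months and 249 to 335 at 30 months, without overlap. With cord means of 22.5 to 35.2 it was not tested. Col1a1, which was tested, had means of 198 and 76.2 in the nucleus and 735 and 486 in the cord at these ages. Fold changes are ratios of geometric means. limma 3.58.1 in R 4.3.3 fitted the 6 group means to all 18 arrays with a mean-variance trend (12 residual degrees of freedom), with 2-sided tests and Benjamini-Hochberg adjustment over the probe sets tested. The number of arrays limits the precision. On simulated data for this comparison, on 9482 probe sets, 89% of changes of log2 1 and 100% of log2 2 were recovered. Of the calls made there, 5.5% were false. These shares hold only for noise as simulated and for the 100 changes planted at each size. The adjusted p depends on how many probe sets change, and in the data only 20 passed. There RT1-Bb at log2 1.08 and Gpnmb at 1.03 did not pass, so 89% is not the share recovered in the data. Whether that noise matched the spread between the 30-month arrays was not tested, so the shares may be too favourable. In the data themselves, leaving out 1 array gave from 4 to 69 calls.

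The array annotation named 1 gene for 12789 probe sets, several for 312 and none for 2822, with symbols updated through RefSeq on GRCr8. In a list, a gene is represented by its brightest probe set. The genes named are those past the test, the next by p up to 30, those past the 1.70-fold rule, and of each list up to 4 leading members with any needed to say which part of it did not move. The comparison, its gene lists and its tests were chosen with earlier results of these data known. Alternatives covered normalization, floor, filter, arrays in the fit, variance model, replicate block, Ttr as a covariate and leaving out each array. Replicate numbers do not pair the arrays: the deviations of same-numbered oculomotor arrays correlated between -0.10 and 0.08.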

Additional observations from a re-analysis of the deposited data

How the results depend on the processing

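All 20 probe sets past the test kept their direction in every alternative that tested them. Their number was 17 with quantile normalization, 14 with median centring, 19 with no floor, 22 with the 9 oculomotor arrays only, 18 without the mean-variance trend and 28 with array quality weights. It was 10 with a pseudocount of 50 in place of the floor, 8 with no filter, 12 with a stricter filter, 9 with only the 6 arrays compared and 10 with Ttr as a covariate. Leaving out 1 array gave 4 (without 6-month replicate 2) to 69 (without 30-month replicate 1), and 14 of the 69 were among the 20. The share of calls that were higher was 85.0% as reported and 71.4% with median centring. With the replicate block, which pairs arrays by a number they only share, 9 were called, all among the 20, and the tissue difference had 0. The count of 27 over 1.70-fold without overlap became 17 with the pseudocount, 52 with no filter, 14 with the stricter filter and 14 at 2-fold, and 29 to 91 with 1 array left out (91 without 30-month replicate 1, 44 without 6-month replicate 1). With no filter the tissue difference passed for 2 probe sets. The cause of these differences was not tested. Signals under the floor give only a bound, as for Col1a1.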

Other observations

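Without 30-month replicate 1, 69 probe sets passed the test, 48 higher and 21 lower. The genes below were chosen after their values were seen, so they are described and not tested further. Values are given for 3 of the lower and 3 of the higher ones. Pkia, an inhibitor of protein kinase A, had 929, 895 and 925 at 6 months and 779.9, 531 and 426 at 30 months. Serpini1, neuroserpin, had 1163, 1334 and 1501.5 and then 1152, 861 and 703. In both the old replicate 1 lay nearer to the young arrays than replicates 2 and 3 did. Sv2b, a synaptic vesicle glycoprotein, had 859.9, 967 and 924 and then 795, 533 and 598, while its brighter probe set had a log2 difference of 0.07 with all arrays.

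Of the higher ones, Macf1, a cytoskeletal linker, had 1295, 1176 and 1193 at 6 months and 1241, 2226 and 1762 at 30 months. Mycbp2, a ubiquitin ligase of axons, had 1538, 1439.7 and 1573 and then 1379.6, 2513 and 2454. The noncoding RNA Meg3 had 2012, 1649 and 1924 and then 1471, 3579 and 2467. The old replicate 1 lay within or below the young arrays in these 3, and replicates 2 and 3 lay above them. None of these 6 genes passed with all 3 old arrays, at adjusted p from 0.152 to 0.697. They were taken from calls made without replicate 1, which favours genes where it lies apart from replicates 2 and 3. Its place in these 6 genes therefore supports nothing about that array.

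Several lists stayed near the median of all probe sets. 0 of 22 tested genes of cell cycle arrest, DNA damage and cell death passed (median -0.03), 0 of 39 chaperones (-0.03), 0 of 42 antioxidant and metal-binding genes (-0.05) and 0 of 23 genes of glycolysis (-0.03). Cholesterol synthesis had 0 of 23 past the test, with a median of -0.07 in the nucleus and -0.28 in the cord, a difference that was not tested.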
